A study of Mus musculus with 8 samples.

Results

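Lysosomes are acidic organelles in which sugars, lipids, proteins and nucleic acids taken up from outside or delivered from inside the cell are broken down. Soluble hydrolases do this work in sequence, each removing the group that the one before it exposed, with help from activator proteins, while membrane proteins shield the organelle wall and export the products. Dendritic cells and macrophages are rich in lysosomes, which degrade engulfed material and shape the peptides that can be presented to T cells. Many lysosomal genes are known to share promoter letters read by the transcription factors Tfeb, Tfe3 and Mitf.

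The genes described here are 42 named lysosomal genes of 15465 in the table, taken by gene symbol from a list drawn up with earlier results of these data known. They comprise 15 glycan-degrading enzymes, 8 genes of sphingolipid breakdown, 4 of other lipid and cholesterol handling, 4 of protein breakdown and depalmitoylation, 4 phosphatase, nuclease and progranulin genes, and 7 membrane proteins. All 42 were measured, and all 42 reached a mean of 1 FPKM (fragments per kilobase of transcript, scaled to the library) in a group, the level required for testing.

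RNA was sequenced from wild type C57/BL6 mouse cells in 2 groups of 4 samples. Both were grown from bone marrow with GM-CSF and IL-4 (6 days), exposed to LPS (24 h), enriched for CD11c with magnetic beads and kept on spleen stroma (9 days), which gives the cells labelled diffDC. The control group then received the siRNA si-nc and the other group si-Suclg2, against a subunit of the mitochondrial succinyl-CoA ligase. An siRNA lowers its target without removing it, and the labels give neither the siRNA sequences nor the time from transfection to collection, nor say whether the samples of a group are separate cultures or animals. The p-values therefore measure the spread between these samples, which may be technical.

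Suclg2 stood at 4.59 ± 0.122 FPKM (SD, n = 4) with si-nc and the si-Suclg2 samples kept 53.9% of that level, 2.48 ± 0.252 FPKM (SD, n = 4), without overlap (two-sided exact permutation test over 70 assignments, p = 0.0286, the smallest this design allows). Summed FPKM ran from 506242 to 539290 per sample, and read depth is unknown. The cells are labelled BMDC, bone marrow-derived dendritic cells. Of 12 conventional dendritic cell markers 8 were in the table, and 3 of them (Flt3, Zbtb46 and Clec9a) were under 1 FPKM in every sample. The 5 that passed the filter were Itgax at 20.2, Clec10a at 12.6, Fscn1 at 12.2, Ccr7 at 4.665 and Batf3 at 1.21 FPKM in the si-nc mean. All 14 macrophage and monocyte markers passed the filter, from Vcam1 at 4.475 to Apoe at 9883 and Lyz2 at 10384 FPKM in the si-nc mean. With si-Suclg2, 3 of those 14 macrophage genes rose and 5 fell in the test described below. Over all genes tested it called 12% higher and 14.9% lower. In the means Adgre1 rose from 333 to 597, Fcgr1 from 354 to 517 and Ly6c2 from 203 to 391 FPKM. The falls were in Lyz2 and Apoe, to 7455 and 6433 FPKM, and in Csf1r, Cd68 and Ccr2. The summed level of the list, to which Lyz2 and Apoe contributed most, was 27953 to 35136 FPKM with si-nc and 22611 to 27330 FPKM with si-Suclg2. The 8 dendritic cell markers summed to 49.1 to 57.0 FPKM and to 28.8 to 35.5 FPKM, and 3 of the 5 tested fell. Of 12 stroma and fibroblast markers 6 were tested and 0 were called, with sums of 17.3 to 41.1 and 12.4 to 30.3 FPKM. Beside those shares of all genes, 0 calls among 6 genes is not read as a result. The 6 tested were Fn1, Col1a1, Sparc, Dcn, Col3a1 and Col1a2, at 1.88 to 8.64 FPKM in the si-nc mean. Their means were all lower with si-Suclg2, with log2 fold changes of -0.72 to -0.18. Pdgfra, which did not reach the filter, was at 0.01 FPKM or less in every sample. The part of these markers in the results below was not tested.

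Lysosomal genes were mostly lower with si-Suclg2. Of the 42, 24 fell, 2 rose and 16 did not pass (limma with Benjamini-Hochberg adjustment over 10176 genes, called at an adjusted p under 0.05). Over all genes tested 14.9% were called lower and 12% higher, against 57.1% and 4.76% of the lysosomal genes. The median log2 fold change (si-Suclg2 minus si-nc, on log2(FPKM + 1)) was -0.21 for the 42 genes and -0.03 for all genes tested. The falls were moderate, from 11.2% to 40.4% of the si-nc mean, and 0 of the 42 changed by 1 or more on the log2 scale. In 24 genes every si-Suclg2 sample lay below every si-nc sample, and in 2 genes every one lay above; over all genes tested those shares were 16.4% and 13.2%, or 29.6% in either direction. With the replicate number as a block, 27 lysosomal genes fell and 4 rose, while over all genes tested 22.5% were then called lower and 18% higher. With the means of replicates 1 and 2 and of replicates 3 and 4 taken as 2 replicates a group, 272 of all genes passed and 2 of the lysosomal genes, Hexa and Gusb, both lower. In the authors' deposited table, 33 of the 42 had a lower and 4 a higher value at a q-value under 0.05, or 37 in either direction. Of all its genes, with no filter on level, 47.6% had such a q-value in either direction, and shares by direction were not taken. All 42 lysosomal genes reached 1 FPKM, so the 37 and the 47.6% are not like for like.

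**Figure D1:**
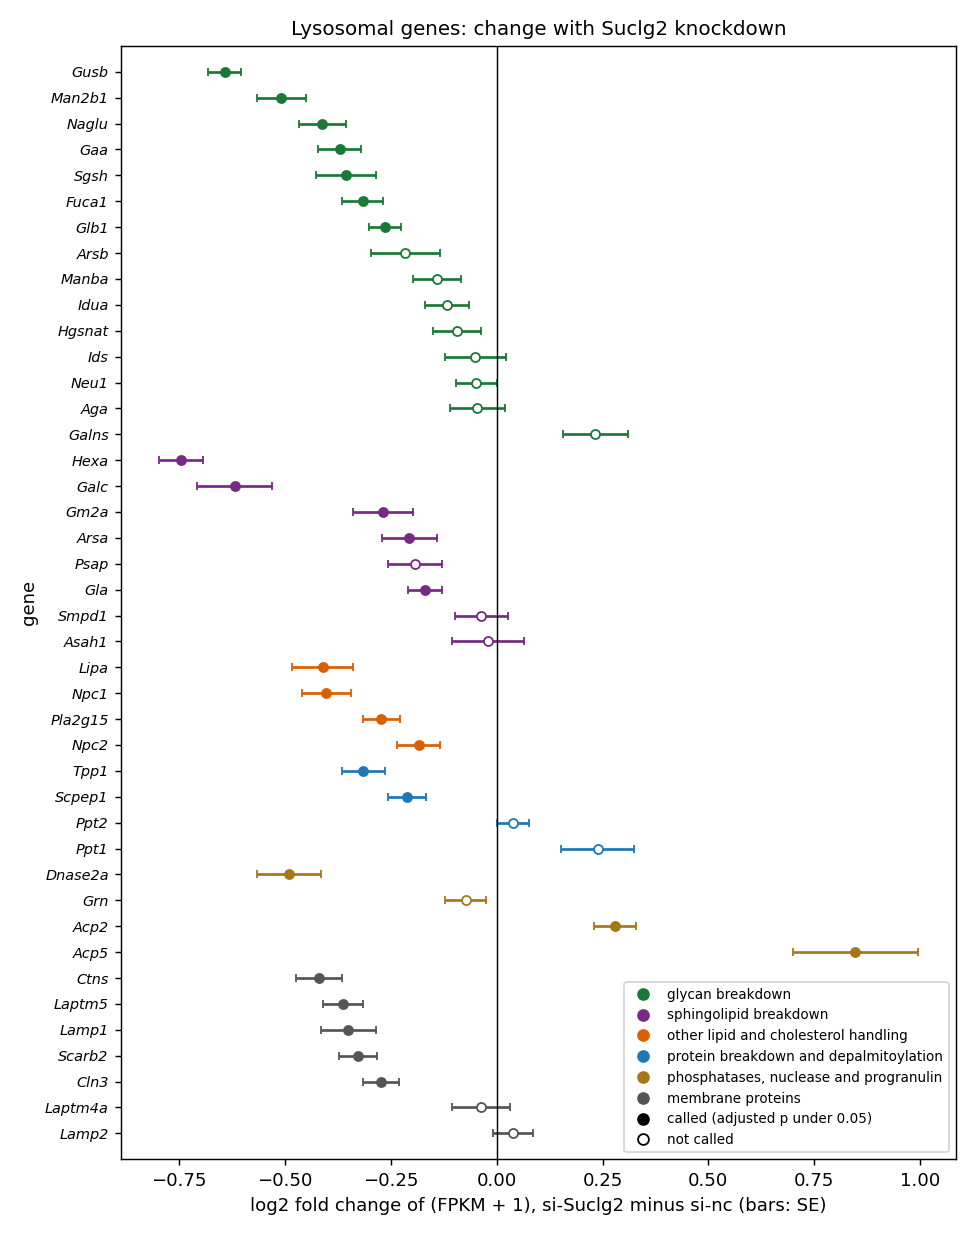
Log2 fold change of each of the 42 lysosomal genes on log2(FPKM + 1), si-Suclg2 minus si-nc, with its SE, coloured by role; filled points passed the test (24 lower, 2 higher) and open points did not (16). Hexa, Gusb, Galc and Man2b1 lie farthest to the left, and Acp5 and Acp2 are the filled points to the right of 0.

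Taken as a summed level, the 42 genes made up 3.60% ± 0.0677 (SD, n = 4) of all FPKM with si-nc and 3.04% ± 0.138 (SD, n = 4) with si-Suclg2. The sum ran from 18356 to 18909 FPKM in the si-nc samples and from 15494 to 16278 FPKM in the si-Suclg2 samples, so the groups were apart. In bulk RNA, fewer cells that carry a transcript and less of it per cell cannot be told apart. Psap alone held a large part of that sum; without it the other 41 genes summed to 10298 ± 252 and 8746 ± 160 FPKM (SD, n = 4 each). On this per-length scale the si-nc means spanned 5.52 FPKM for Arsb to 8282 FPKM for Psap, with Psap, Grn, Lamp1 and Laptm5 highest and a median of 76.6 FPKM, against 11.2 FPKM over all genes tested. Replicates were close, with a coefficient of variation in the si-nc group of 0.695% to 13.6% and a median of 5.16%.

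**Figure D2:**
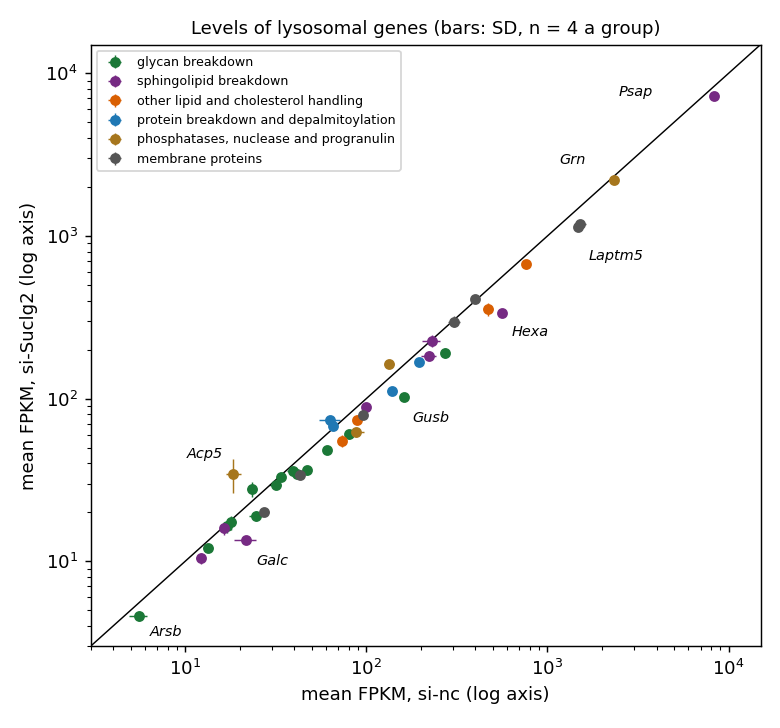
Mean FPKM of the 42 genes with si-nc (horizontal, log axis) and with si-Suclg2 (vertical, log axis), with SD bars (n = 4 each); the line marks equal levels. Points from Arsb at 5.52 FPKM to Psap at 8282 FPKM with si-nc lie mostly below the line, and Acp5 lies above it.

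Because the promoters of many lysosomal genes are known to hold the letters CACGTG, the core of the site that Tfeb, Tfe3 and Mitf bind, RefSeq promoter windows (GRCm38.p6, 250 bases before to 50 after each transcription start) were searched on both strands. Windows were given for 37 of the 42 genes; Aga, Asah1, Galns, Hgsnat and Npc1 had none in the table. CACGTG, which reads the same on both strands, was found in 8 of the 37 (21.6%), and in each of the 8 at least 1 copy was extended to TCACGTG or its reverse complement CACGTGA. The core letters occurred in 8.09% and the extended letters in 4.29% of the 27025 genes with a window, and in 12.3% and 7.49% of the 8249 of them that were tested here. All 8 genes were among those that fell, namely Arsa, Cln3, Gaa, Gla, Glb1, Lamp1, Naglu and Sgsh; of the 29 without the letters 15 fell and 2 rose. Over the 618 tested genes with the extended letters 22.0% were called lower, and over all 8249 tested genes with a window 15.1%. Short stretches are shown to set these sites side by side, each around the copy whose neighbouring letters were nearest to the palindromic consensus of that site, 5′ to 3′ in the direction of the gene, with CACGTG in capitals:
Cln3: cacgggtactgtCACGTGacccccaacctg
Gla: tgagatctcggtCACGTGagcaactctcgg
Glb1: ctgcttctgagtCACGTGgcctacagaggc
Naglu: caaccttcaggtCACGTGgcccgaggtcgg
Arsa: cttcaactcagtgtCACGTGttgtctgctc
Gaa: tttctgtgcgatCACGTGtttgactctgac
Sgsh: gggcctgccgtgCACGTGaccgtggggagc
These lie on GRCm38 at chr7:126583340-126583369 (minus strand) for Cln3, chrX:134601182-134601211 (minus) for Gla, chr9:114401018-114401047 (plus) for Glb1, chr11:101070009-101070038 (plus) for Naglu, chr15:89477425-89477454 (minus) for Arsa, chr11:119267811-119267840 (plus) for Gaa and chr11:119355522-119355551 (minus) for Sgsh. The stretches of Arsa, Cln3, Naglu and Sgsh touch annotated exons of their own gene, since other transcripts start further upstream, and that of Gla touches an exon of the neighbouring gene Hnrnph2. Lamp1 had the most copies, 4 within the last 61 bases before its start, shown with the 100 bases at chr8:13159061-13159160 (plus strand), which overlap no annotated exon:
Lamp1: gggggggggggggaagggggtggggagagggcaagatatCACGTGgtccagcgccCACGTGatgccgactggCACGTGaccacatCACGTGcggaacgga
A match of letters is a description of the sequence and shows no binding.

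Among the glycan-degrading enzymes, 7 of 15 fell, 0 rose and 8 did not pass, with a median log2 fold change of -0.22. The shares of all genes tested, 14.9% lower and 12% higher, apply beside this and each role group below. In groups this small a count of 0 rises is not read as a result. Values in samples are given below in the order of replicates 1 to 4. Gusb encodes beta-glucuronidase, which takes glucuronic acid off glycosaminoglycan chains (chromosome 5, 129989011 to 130003049, minus strand, GRCm38). Its level was 157, 155, 160.2 and 169 FPKM with si-nc and 103, 103, 103 and 99.96 FPKM with si-Suclg2. All 4 knockdown samples lay within a narrow band well below the controls (log2 fold change -0.64 ± 0.04 SE, limma adjusted p = 6.86e-06). Man2b1, the lysosomal alpha-mannosidase of glycoprotein breakdown, was at 267, 257, 283 and 279 FPKM and at 205, 197, 187 and 174 FPKM. Again the groups were apart (-0.51 ± 0.06 SE, limma adjusted p = 0.000253). Naglu, which removes N-acetylglucosamine from heparan sulfate, had 78.1, 77.6, 83.04 and 82.7 FPKM with si-nc and 55.2, 58.4, 64.2 and 63.1 FPKM with si-Suclg2. In both groups replicates 3 and 4 stood above replicates 1 and 2, and the groups did not overlap (-0.41 ± 0.06 SE, limma adjusted p = 0.000595). Gaa, the acid alpha-glucosidase that degrades glycogen, was at 47.0, 45.04, 48.1 and 48.2 FPKM and at 38.1, 37.7, 35.7 and 33.4 FPKM. The si-Suclg2 samples were all lower (-0.37 ± 0.05 SE, limma adjusted p = 0.000690).

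The other 3 falls in this group were in Sgsh, the heparan sulfate sulfamidase, with 22.8 to 27.5 FPKM against 17.2 to 20.7 FPKM, in Fuca1, the alpha-fucosidase, with 58.6 to 64.0 against 45.4 to 50.7 FPKM, and in Glb1, the beta-galactosidase that acts on ganglioside GM1 and keratan sulfate, with 40.5 to 42.1 against 33.6 to 35.5 FPKM. Their log2 fold changes lay between -0.36 and -0.26, with no overlap of groups.

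Not every enzyme of heparan sulfate breakdown passed. Gusb, Naglu and Sgsh fell, whereas 3 enzymes of the same chain did not pass, namely the iduronidase gene Idua at 39.2 ± 2.55 and 36.0 ± 1.21 FPKM, the sulfatase gene Ids at 18.0 ± 1.09 and 17.3 ± 1.72 FPKM, and the acetyltransferase gene Hgsnat at 31.5 ± 2.38 and 29.4 ± 1.05 FPKM (SD, n = 4 each). Whether these genes differ in their change was not tested. Galns, which desulfates keratan sulfate, had the only higher mean of the 15, at 23.3 ± 1.46 and 27.7 ± 3.02 FPKM (limma adjusted p = 0.0507). Arsb, the dermatan sulfate sulfatase, was at 5.52 ± 0.655 and 4.60 ± 0.333 FPKM. With the replicate block Galns (limma adjusted p = 0.0364) passed as higher, and Arsb (0.0155) and Idua (0.0448) as lower. The log2 fold change of Galns was 0.05 with replicates 1 and 2 alone (limma adjusted p = 0.510) and 0.41 with replicates 3 and 4 alone (0.00185). The remaining 3, the beta-mannosidase gene Manba, the sialidase gene Neu1 and the aspartylglucosaminidase gene Aga, had log2 fold changes of -0.14 to -0.05 and overlapping groups.

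Sphingolipid breakdown included the largest fall of the 42. Of the 8 genes 5 fell, 0 rose and 3 did not pass, with all 8 means lower and a median of -0.20. Hexa encodes the alpha subunit of beta-hexosaminidase, which cuts ganglioside GM2 (chromosome 9, 59539540 to 59565109, plus strand). It was at 538, 546, 576 and 597 FPKM with si-nc and at 320.2, 328, 356 and 340.0 FPKM with si-Suclg2. The highest knockdown sample lay far below the lowest control, a fall of 40.4% (-0.75 ± 0.05 SE, limma adjusted p = 1.3e-05). Gm2a, the activator that lifts GM2 to this enzyme, went from 205, 204, 237 and 241 FPKM to 176, 171, 196 and 191 FPKM. It also fell (-0.27 ± 0.07 SE, limma adjusted p = 0.0212), with no overlap, and the call was lost on leaving out the third control (limma adjusted p = 0.0568), the fourth control (0.0529) or the second knockdown sample (0.0570). Galc, the galactocerebrosidase, had 19.5, 18.6, 24.0 and 24.2 FPKM with si-nc and 13.4, 12.8, 13.6 and 14.4 FPKM with si-Suclg2. The controls differed among themselves, and all of them exceeded every knockdown sample (-0.62 ± 0.09 SE, limma adjusted p = 0.000808). Gla, the alpha-galactosidase that cuts globotriaosylceramide, was at 102, 102, 100.5 and 95.3 FPKM and at 86.6, 91.0, 90.3 and 86.9 FPKM. The fall was small with no overlap (-0.17 ± 0.04 SE, limma adjusted p = 0.0115).

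Arsa, the sulfatase that acts on sulfatide, was called lower by a narrow margin and with overlapping groups, at 12.2 ± 0.755 and 10.4 ± 0.784 FPKM (SD, n = 4 each; -0.21 ± 0.07 SE, limma adjusted p = 0.0426); leaving out a sample kept the call only for the second control and the third knockdown sample (limma adjusted p = 0.0261 and 0.0317), and for the other 6 gave 0.0731 to 0.101. Psap, which encodes the precursor of the saposin activators and was the most abundant gene of the set, was at 8296, 8303, 8331 and 8199 FPKM with si-nc and at 7578, 7487, 7128 and 6814 FPKM with si-Suclg2. Its groups did not overlap, yet it missed the threshold (-0.19 ± 0.06 SE, limma adjusted p = 0.0514) and passed it with the replicate block (0.0165). Psap passed in 7 of 20 other settings, that block among them. After quantile normalization its log2 fold change was 0.03 (limma adjusted p = 0.867). The acid ceramidase gene Asah1, at 230 ± 25.6 and 226 ± 18.3 FPKM, and the acid sphingomyelinase gene Smpd1, at 16.4 ± 0.226 and 16.0 ± 1.48 FPKM, did not pass (limma adjusted p = 0.887 and 0.709).

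All 4 genes of other lipid and cholesterol handling fell, with a median of -0.34. Lipa encodes the acid lipase that frees cholesterol and fatty acids from lipoprotein esters. Its level was 504, 493, 447 and 443 FPKM with si-nc and 375, 389, 335 and 321 FPKM with si-Suclg2. Replicates 3 and 4 were the lower ones within both groups, and the groups were apart (-0.41 ± 0.07 SE, limma adjusted p = 0.00277). Npc1 and Npc2 together carry cholesterol out of the lysosome, the first as a membrane transporter and the second as a soluble carrier. Npc1 was at 72.4, 70.5, 76.2 and 72.5 FPKM and at 59.0, 57.8, 53.7 and 49.5 FPKM (-0.40 ± 0.06 SE, limma adjusted p = 0.000920). Npc2 was at 748, 753, 771 and 769 FPKM and at 640, 632, 714 and 694 FPKM (-0.18 ± 0.05 SE, limma adjusted p = 0.0257). Neither pair of groups overlapped, but the call on Npc2 was lost after trimmed-mean scaling (limma adjusted p = 0.0812) and on leaving out any of controls 2 to 4 or of knockdown samples 1 and 2 (0.0534 to 0.0706). The phospholipase A2 gene Pla2g15 had 86.4, 85.2, 92.6 and 93.0 FPKM with si-nc and 73.4, 72.1, 76.6 and 72.8 FPKM with si-Suclg2. Every knockdown sample was below every control (-0.27 ± 0.04 SE, limma adjusted p = 0.00167).

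**Figure D3:**
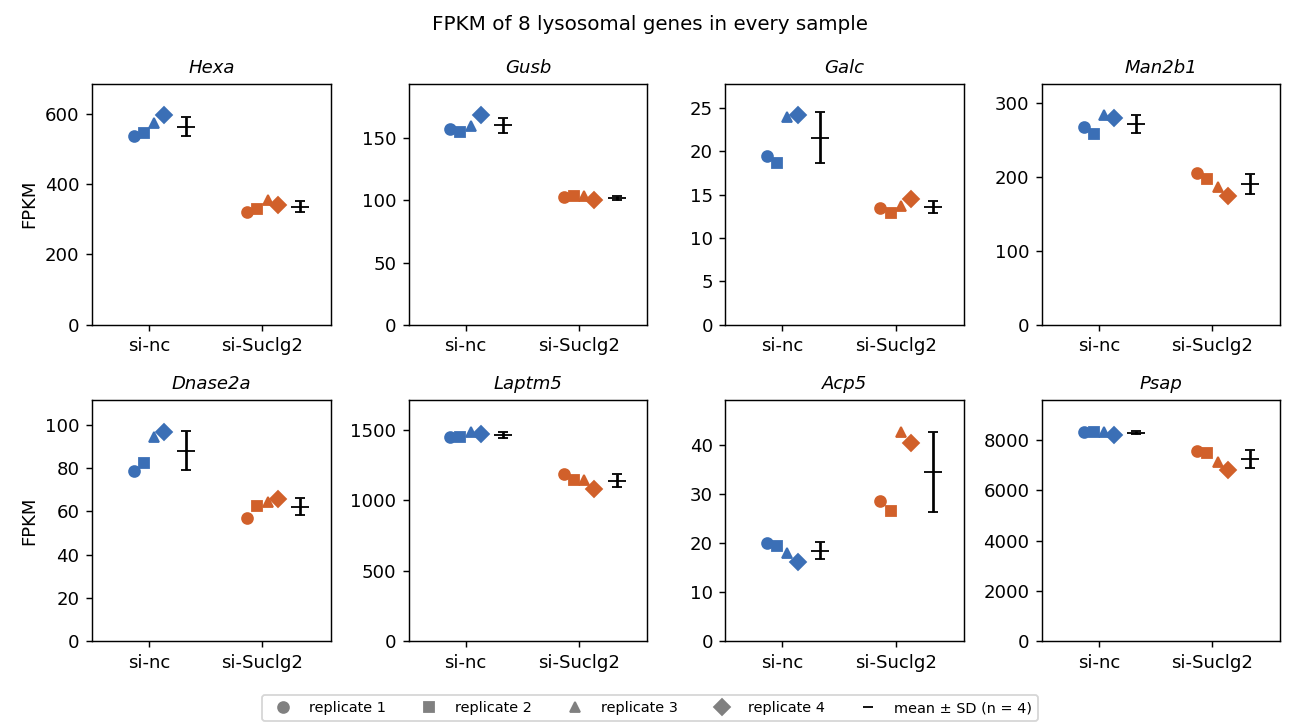
FPKM of 8 lysosomal genes in every sample (vertical axes start at 0; symbols mark the replicate number), with the mean and SD of 4 samples a group. The groups are apart in all 8, higher with si-Suclg2 in Acp5 (18.5 and 34.6 FPKM in the mean) and lower in the others; Psap did not pass the test.

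In the group of protein breakdown and depalmitoylation both peptidases fell and neither thioesterase passed. Thus 2 of 4 genes fell and 0 rose, beside 14.9% and 12% of all genes tested. Tpp1, a peptidase that takes tripeptides off protein ends, was at 134, 128, 146 and 147 FPKM with si-nc and at 109, 110, 115 and 111 FPKM with si-Suclg2. Scpep1, a serine carboxypeptidase, was at 188, 192, 197 and 203 FPKM and at 164, 161, 178 and 169 FPKM. Both fell without overlap (-0.32 ± 0.05 and -0.21 ± 0.05 SE, limma adjusted p = 0.00170 and 0.00761). Ppt1 and Ppt2 encode thioesterases that remove fatty acyl groups. Ppt1 had 54.4, 57.9, 69.7 and 70.4 FPKM with si-nc and 70.9, 70.2, 77.3 and 78.6 FPKM with si-Suclg2, and Ppt2 had 65.3, 67.5, 64.6 and 65.6 FPKM and 69.8, 67.9, 65.9 and 66.6 FPKM. Within replicate numbers Ppt1 was higher with si-Suclg2 in 4 of 4 pairs. It passed as higher with the replicate block (limma adjusted p = 0.00360) but not in the fit of all samples on group alone (0.0701). Of 20 other settings Ppt1 passed in 6, among them replicates 1 and 2 alone (limma adjusted p = 0.000862) and replicates 3 and 4 alone (0.0345). Ppt2 did not pass with the block or on group alone.

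The 2 genes that rose both encode acid phosphatases. Acp5, the tartrate-resistant acid phosphatase of osteoclasts and activated macrophages (chromosome 9, 22126727 to 22135711, minus strand), was at 20.04, 19.5, 18.1 and 16.2 FPKM with si-nc and at 28.7, 26.5, 42.8 and 40.5 FPKM with si-Suclg2. Every knockdown sample exceeded every control, and replicates 3 and 4 made up the upper part of the si-Suclg2 range (0.85 ± 0.15 SE, limma adjusted p = 0.00258, a 1.87-fold ratio of means). The log2 fold change was 0.46 with replicates 1 and 2 alone and 1.23 with replicates 3 and 4 alone. Acp2, the lysosomal acid phosphatase present in most cells, was at 130.5, 128, 146 and 131 FPKM and at 161, 157, 166 and 167 FPKM (0.28 ± 0.05 SE, limma adjusted p = 0.00301). Dnase2a, the acid nuclease that digests DNA of engulfed cells, went the other way, from 78.6, 82.1, 94.3 and 96.7 FPKM to 56.7, 62.2, 64.1 and 65.7 FPKM (-0.49 ± 0.08 SE, limma adjusted p = 0.00134). In Acp2 and Dnase2a too the groups did not overlap. Grn, which encodes progranulin, the precursor of the lysosomal granulins, was abundant and close in both groups, at 2307, 2373, 2358 and 2254 FPKM and at 2252, 2155, 2255 and 2171 FPKM, and did not pass (-0.07 ± 0.05 SE, limma adjusted p = 0.310).

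Membrane proteins fell in 5 of 7 cases and rose in 0, with a median of -0.33. Ctns, the exporter of cystine, was at 25.5, 26.6, 28.9 and 28.4 FPKM with si-nc and at 20.9, 19.7, 21.1 and 19.1 FPKM with si-Suclg2. Laptm5, a lysosomal membrane protein of blood cells, had 1450, 1450, 1488 and 1474 FPKM and 1189, 1148, 1144 and 1078 FPKM. Both fell with no overlap (-0.42 ± 0.05 and -0.36 ± 0.05 SE, limma adjusted p = 0.000493 and 0.000532). Scarb2, also known as LIMP-2, the receptor that delivers glucocerebrosidase, was at 42.5, 41.3, 45.1 and 43.2 FPKM and at 32.5, 33.6, 35.0 and 35.2 FPKM. Cln3, the membrane protein affected in juvenile Batten disease, was at 93.0, 91.1, 97.7 and 101 FPKM and at 76.6, 81.2, 78.8 and 79.1 FPKM. These 2 genes also fell with groups apart (-0.33 ± 0.04 and -0.27 ± 0.04 SE, limma adjusted p = 0.000649 and 0.00157). Of the related coat proteins, Lamp1 fell from 1510 ± 113 to 1183 ± 56.2 FPKM (limma adjusted p = 0.00366), whereas Lamp2 was at 398 ± 15.3 and 409 ± 16.8 FPKM (0.608; SD, n = 4 each). Likewise Laptm5 fell while its relative Laptm4a, at 305 ± 21.8 and 298 ± 22.8 FPKM, did not pass (limma adjusted p = 0.737); the difference between relatives was not tested in either pair.

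**Figure D4:**
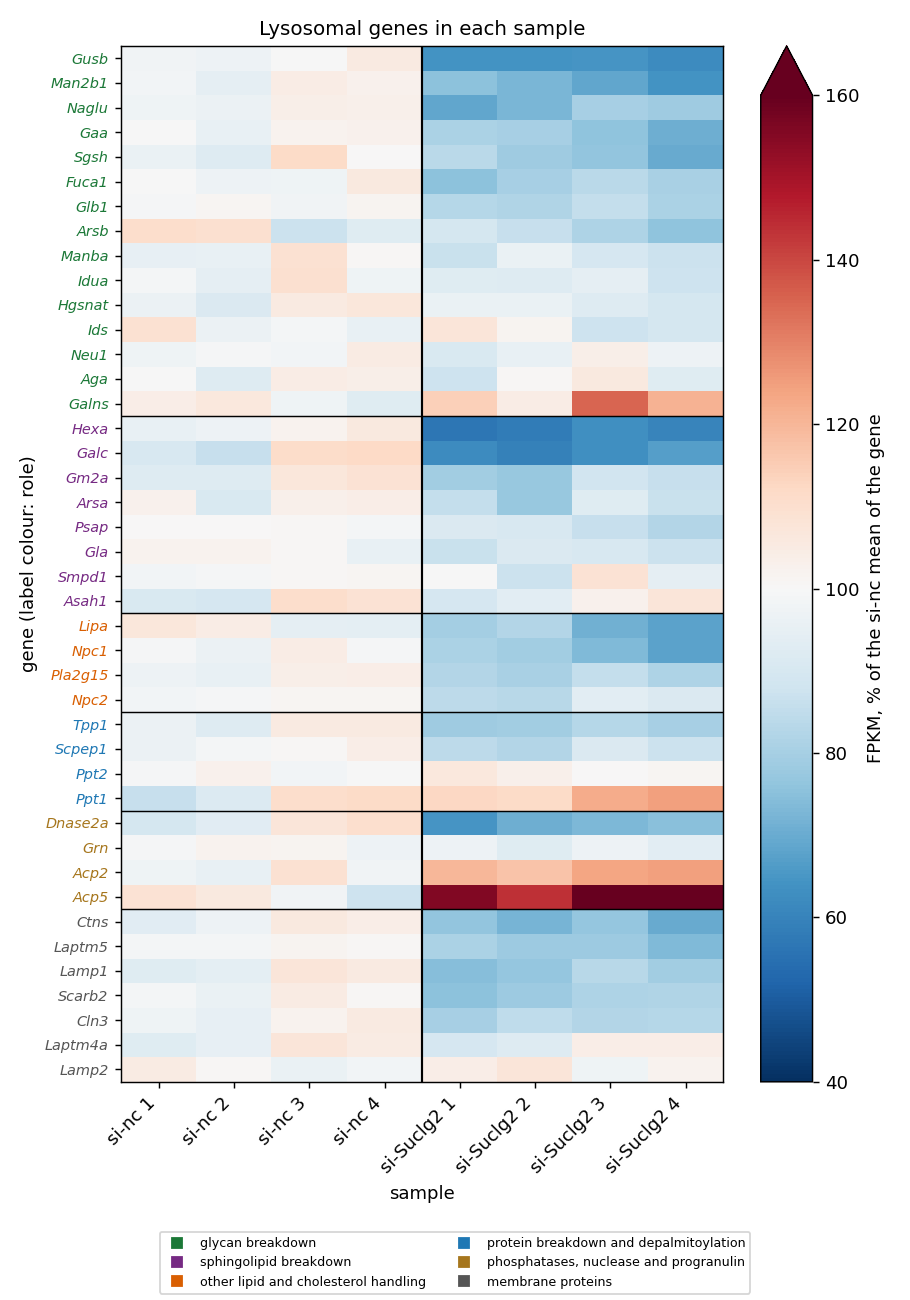
FPKM of the 42 genes in each of the 8 samples as a percentage of the gene's si-nc mean (colour scale 40% to 160%, higher values in the darkest red), grouped by role. The si-Suclg2 columns are blue for most genes and red for Acp5 and Acp2. Galns and Ppt1, which did not pass, are also above the si-nc mean there, at 118.6% and 117.7% in the mean. In many rows replicates 1 and 2 differ in shade from replicates 3 and 4 within a group.

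Replicates 1 and 2 stood apart from replicates 3 and 4 in much of the set. Within the si-nc group both of replicates 3 and 4 lay above both of 1 and 2 in 28 of the 42 genes and below them in 6; within the si-Suclg2 group the numbers were 19 and 12. The same order held in both groups in 15 genes that were higher in replicates 3 and 4, Asah1, Galc and Lamp1 among them, and in 3 that were lower, while 8 genes had opposite orders in the 2 groups. The labels do not say what the numbers mark. Such orders were not counted over all genes tested, so these counts are not read as particular to the lysosomal genes. With replicates 1 and 2 alone 25 of the 42 genes fell and 3 rose, where 16.7% of all genes tested were called lower and 14.4% higher. With replicates 3 and 4 alone 24 fell and 4 rose, where the shares of all genes were 17.9% and 14.7%.

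Other lysosomal genes outside the 42 were described from lists by function. Of 24 further hydrolases and cofactors tested, 10 fell and 3 rose, with a median of -0.09; over all genes tested 14.9% were lower and 12% higher, so the share that rose was near that of all genes. The phospholipase D family gene Pld3 fell from 422 ± 18.8 to 225 ± 16.6 FPKM, the dipeptidyl peptidase gene Dpp7 from 44.3 ± 5.87 to 26.1 ± 1.48 FPKM and the prolylcarboxypeptidase gene Prcp from 43.6 ± 4.15 to 31.8 ± 1.40 FPKM (SD, n = 4 each; limma adjusted p = 9.998e-06, 0.000329 and 0.00125). Of 24 further membrane proteins 11 fell and 2 rose, against the same shares of all genes, with a median of -0.19. Slc11a1, the metal ion transporter of phagosomes, rose from 112 ± 0.979 to 180 ± 3.46 FPKM, whereas Sidt2 fell from 45.3 ± 0.984 to 31.1 ± 1.48 FPKM and Laptm4b, the third gene of the Laptm family, from 4.23 ± 0.317 to 2.13 ± 0.325 FPKM (limma adjusted p = 2.62e-06, 4.06e-05 and 0.000281). Lists that hold Lyz2 and Cd68 here share them with the macrophage markers.

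Of 22 genes that deliver enzymes to the lysosome 4 fell and 3 rose, shares near the 14.9% lower and 12% higher over all genes tested, with a median of -0.06. The clathrin adaptor gene Gga2 fell from 12.4 ± 0.482 to 8.43 ± 0.778 FPKM and the sorting receptor gene Sort1 from 2.68 ± 0.137 to 1.75 ± 0.0768 FPKM, while the adaptor subunit gene Ap1b1 rose from 43.8 ± 2.70 to 58.2 ± 3.18 FPKM (limma adjusted p = 0.000494, 0.000851 and 0.000769). The number of delivery genes called lower was 8 with the replicate block, under which 22.5% of all genes tested were called lower. Among 5 transcription factor genes known for lysosomal targets, 2 rose and 1 fell, beside 12% higher and 14.9% lower over all genes tested. Mitf was at 14.0 ± 0.734 and 16.8 ± 1.121 FPKM, Tfe3 at 70.4 ± 1.201 and 76.3 ± 0.792 FPKM, and Tfeb at 24.1 ± 0.793 and 21.7 ± 0.789 FPKM (limma adjusted p = 0.0156, 0.0315 and 0.0383). The calls on this small list changed with the setting and are not read as a result about these factors. In the 4 settings that follow, 10.3% to 14.7% of all genes tested were called higher and 12.2% to 17.9% lower. There were 0 rises and 2 falls after scaling to a common column sum, 2 rises and 0 falls after trimmed-mean scaling, 1 rise and 0 falls without a mean trend, and 0 of either with replicates 3 and 4 alone.

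Annotated exons of 17 of the 42 genes share bases with another gene, in 15 of them only on the opposite strand, and the sources used here do not say whether reads were assigned by strand. Glb1, which fell, shares 165 bases of a single exon with Tmppe on the same strand, where strand would not separate the reads, and Tmppe was at 8.45 and 6.76 FPKM in the si-nc and si-Suclg2 means. Overlaps on the opposite strand include Acp2 with Ddb2, at 1.75 and 1.78 FPKM, Dnase2a with Mast1, at 0.822 and 0.495 FPKM, Hexa with Tmem202, at 1.84 and 1.29 FPKM, and Cln3 with Apobr, at 41.5 and 41.9 FPKM in the si-nc and si-Suclg2 means. Ppt1 adjoins the abundant Cap1, at 269 and 297 FPKM, with 129 bases of a single exon shared.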

How the data were processed

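The deposited table held 1 FPKM value per gene and sample, and a log2 fold change, p-value and q-value from DEGseq, per the file headers. The headers do not name FPKM; the authors' values were read as such because the reads implied by the deposited p-values, per unit of value, increased with the length of the transcript (rho = 0.842, Spearman, over 8366 genes; genes are not independent replicates) and after division by length had medians of 159 to 166 over 8 length classes. This does not tell FPKM from other values scaled by length. Per the submitters' processing notes the builds were GRCm38.p4 and mm10; the sources used here name no aligner or counter. Coordinates are from GENCODE annotation on GRCm38, matched by gene ID.

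Genes with a mean of at least 1 FPKM in a group were tested in R 4.3.3 with limma 3.58.1; values entered as log2(FPKM + 1), the prior variance followed the mean, and group was the only term. The scale understates changes of low genes. The test was tried on simulated data. Genes, roles, lists and tests were chosen with earlier results of these data known, so counts are set beside those of all genes and no list is tested. In each role group, every sample's values are printed for up to 4 genes with the smallest p; of other lists up to 3 genes are named. Psap, Lamp1, Lamp2 and Laptm4a were described at length after their values were seen. Where samples of both groups carry the same number, their deviations from the group means correlated at 0.405 to 0.553 across genes, all above 0.1, so the numbers were treated as pairs in the blocked fit. However, 3 of 8 samples correlated best with the sample of their own number, and pairs by number were not told apart from the division of replicates 1 and 2 from 3 and 4.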

Additional observations from a re-analysis of the deposited data

Results flagged for a closer look

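Of 86 groups of 4 samples examined (the 42 lysosomal genes and Suclg2), 1 held a sample far from the other 3. Arsa was at 11.04 FPKM in si-nc replicate 2, with the other si-nc samples at 12.5 to 12.6 FPKM. Chance sets apart about 1 in 20 such groups.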

How the results depend on the processing

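Across 20 other settings the number of lysosomal genes called lower was 21 to 27, apart from pair means, and the median log2 fold change was -0.25 to -0.18. Over all genes tested the shares in those settings were 8.98% to 25% lower and 7.24% to 19.6% higher, again apart from pair means. Pair means, chosen after seeing the data, gave 2 lower and 0 higher, against 1.44% and 1.23% of all genes tested. Of the 42 genes 22 had an unadjusted p under 0.05 with pair means, and that setting leaves 2 values a group. The share of all genes at an unadjusted p was not taken, and the shares just given are at an adjusted p. The count of 22 therefore has nothing to be set against. The number called higher was 4 with the replicate block, with replicates 3 and 4 only, and with the division of replicate numbers as a block (also chosen after seeing the data). The shares of all genes called higher there were 18%, 14.7% and 19.6%. When any single sample was left out, 2 or 3 were higher and 21 to 24 lower. Over all genes 9.39% to 11.5% were then higher and 11.5% to 14.2% lower. Of the 26 called genes 22 kept their call under every setting but pair means; the others were Gla, Arsa, Gm2a and Npc2. None of the 26 changed direction. Sphingolipid falls were 3 rather than 5 on leaving out control 3, control 4 or knockdown sample 2. Some uncalled genes, all but Psap near 0 on group alone, changed sign in places. Asah1 was at 0.012 after trimmed-mean scaling, at 0.022 with replicates 1 and 2 only, and at -0.0698 to 0.0291 with single samples left out. Psap, at -0.19 on group alone, was at 0.0273 after quantile normalization. Ids was at 0.0253 and Hgsnat at 0.0346 with replicates 1 and 2 only. Smpd1 was at 0.0055 with replicates 3 and 4 only and at -0.0875 to 0.0124 with single samples left out, where Laptm4a was at -0.0716 to 0.0012. The causes were not tested. Among the other lists, hydrolases called higher were 7 rather than 3 with the replicate block and 5 with replicates 1 and 2 only, where 18% and 14.4% of all genes were higher. Delivery genes called lower were 8 rather than 4 with replicates 3 and 4 only, where 17.9% of all genes were lower. The log2 fold change of Suclg2 was -0.87 to -0.58 wherever it was tested; a minimum mean of 5 FPKM left it out. No depth is stated, so no counting error can be given.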
